A study of Mus musculus with 18 samples.

Results

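The genes described here are those of the matrix metalloproteinases (Mmp), the membrane-bound and secreted disintegrin metalloproteinases (Adam and Adamts, with the Adamts-like Adamtsl genes) and the tissue inhibitors of metalloproteinases (Timp). They were selected by symbol, as genes whose mouse symbol starts with Mmp, Adam or Adamts (Adamtsl included) and a number, or is Timp1 to Timp4. Of 84 such genes in the deposited count table, 43 are also in the deposited table of CPM (counts scaled to each library's size), which holds 15386 genes, and these 43 are the members: 13 Mmp, 12 Adam, 12 Adamts, 3 Adamtsl and 3 Timp genes. All libraries came from the MPC3 line of mouse prostate cancer cells. The control group, titled plko, held 6 libraries, and 6 libraries each came from cells with a short hairpin RNA against Rnf185, either shRNF185.1 or shRNF185.3. No genotype, agent or treatment time beyond the hairpin is given, nor whether the cells of a group descend from 1 transduction. Libraries 1 and 2 of every group form batch 1, libraries 3 and 4 batch 2, and libraries 5 and 6 batch 3. The series compares Rnf185 knockdown with control, and its title names the collagen gene Col3a1, migration and metastasis.

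Mmp enzymes are zinc-dependent endopeptidases, made as inactive proenzymes, that cut collagens, other matrix proteins and other proenzymes. Adam proteins sit in the cell surface and release the outer part of growth factors, cytokine receptors, Notch and cadherins. Adamts proteases are secreted: some trim the amino-terminal propeptides off procollagens, some cut the proteoglycans aggrecan and versican, and others act on microfibrils or cartilage matrix protein. Adamtsl proteins share their non-catalytic domains and lack the protease domain. Timp proteins bind the active sites of these enzymes, and Timp2 also takes part, with the membrane-bound Mmp14, in activating Mmp2. In tumours these genes are studied for matrix turnover and invasion, and in many tumours part of their output comes from stromal cells, which were not part of these cell line libraries by their labels.

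Library totals ranged from 22027395 to 43379662 counts, so that 3 counts, taken as the floor of detection, stood for 0.0692 to 0.136 CPM. Rnf185 itself was 35.9 ± 1.96 CPM in control (SD, n = 6 in every group); the shRNF185.1 libraries held 5.81 ± 0.582 and the shRNF185.3 libraries 5.80 ± 0.546 CPM, and all 12 hairpin libraries lay below the lowest control library. Epithelial markers were detected (Krt8 averaged 1197 CPM in control and Krt18 354 CPM), while Epcam and Krt5 reached at most 7 and 3 counts in any library. Of the prostate markers, Hoxb13 averaged 56.5 CPM in control, and Pbsn was at 0 counts in every library. The leukocyte genes Ptprc, Adgre1 and Csf1r reached at most 3, 1 and 5 counts, and the T cell genes Cd3e and Cd3g 0. Cd14 and Cd68, listed with these leukocyte genes, were detected and averaged 45.8 and 3.65 CPM in control. The endothelial genes Cdh5, Pecam1 and Kdr reached at most 2, 11 and 11 counts, the erythroid genes Hbb-bs and Hba-a1 0 and 12, and the adipocyte genes Adipoq and Fabp4 1 and 47; Fabp4 was tested and not called (adjusted p = 0.964 and 0.0697). Of the 4 epithelial markers tested, 4 were lower with shRNF185.1 and 3 with shRNF185.3, beside 14.3% and 13.1% of all genes tested. Cdh1, for epithelial cadherin, averaged 35.0 CPM in control, 9.30 with shRNF185.1 and 7.99 with shRNF185.3, and Krt18 354, 177 and 149 CPM. Krt14 had log2 fold changes of -0.49 with shRNF185.1 (edgeR adjusted p = 0.0283) and -0.42 with shRNF185.3 (adjusted p = 0.0582). Vim averaged 3201, 3349 and 3354 CPM and was not called with either hairpin (edgeR adjusted p = 0.486 and 0.454), and neither was Cdh2 (adjusted p = 0.702 and 0.312). Fn1, for fibronectin, averaged 2542, 2521 and 3368 CPM and was higher with shRNF185.3 (0.41, adjusted p = 0.0108; shRNF185.1 -0.01, adjusted p = 0.947). Whether these marker changes have a part in the protease results was not tested.

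Per kilobase of exon, the inhibitor genes Timp2 and Timp1 led the family in control cells. Timp2 stood at 208 CPM per kb and Timp1 at 142, followed by the stromelysin Mmp3 at 68.5, the membrane-type Mmp14 at 55.2, the sheddases Adam10 at 46.6 and Adam9 at 45.2, and Timp3 at 36.1. Adam10 and Adam9 overlapped in their library ranges, as did Mmp3 with Mmp14. Below them came Adam15 at 15.8, the gelatinase Mmp2 at 15.2 and Adam17 at 11 CPM per kb. The secreted Adamts genes were lower, with Adamts2 the highest of them at 5.01 CPM per kb. The place of Timp1 depends on its short exonic length of 888 bases. By CPM alone it averaged 126 in control, below Mmp14 (329), Timp3 (294), Adam10 (229) and Adam9 (186). In all, 28 members reached a mean of 10 CPM in some group, 8 reached 100 CPM, and 7 stayed under 1 CPM in every group (Adam4, Adam5, Adam22, Adamts16, Mmp12, Mmp17 and Mmp24). Of the 41 family genes not in the CPM table, none had more than 76 counts summed over the 18 libraries: Timp4 had 2, the matrilysin gene Mmp7 1 and the neutrophil collagenase gene Mmp8 6.

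**Figure D1:**
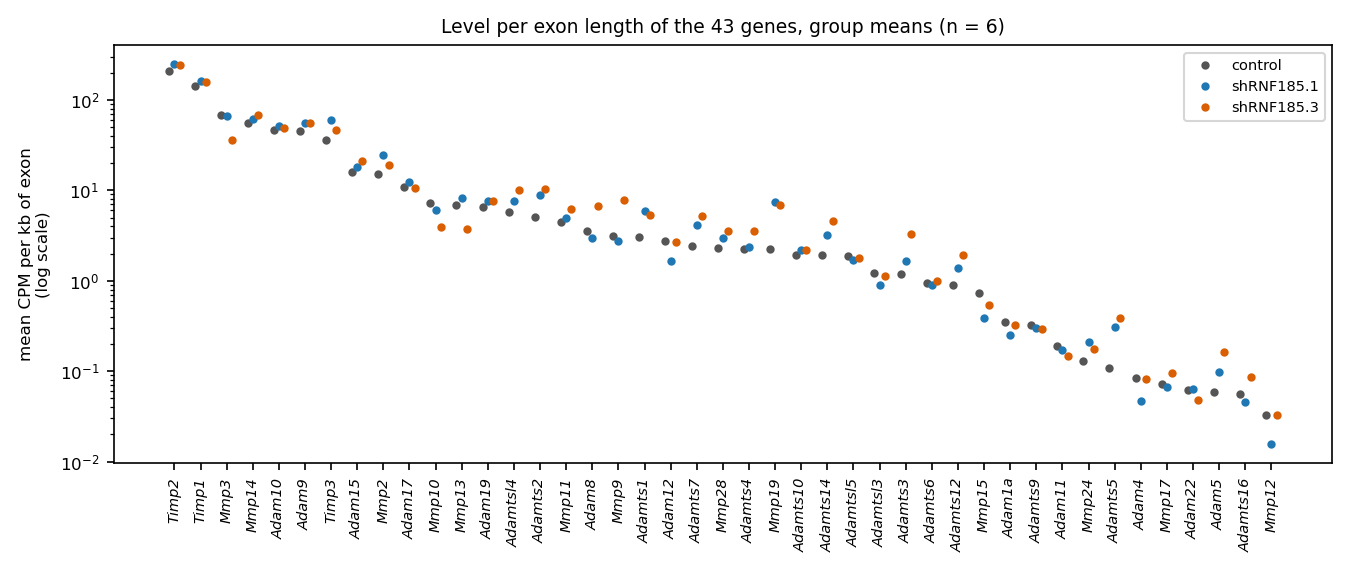
Mean deposited CPM per kilobase of exon (log axis) of the members in control, shRNF185.1 and shRNF185.3 libraries, 6 libraries per group. Timp2 (208 CPM per kb in control) and Timp1 (142) stand highest, and Mmp12 (0.0326) lowest.

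Each member's level was then compared between groups with edgeR's quasi-likelihood test over 14309 genes, and a member was called at a Benjamini-Hochberg adjusted p under 0.05. Adam4 and Mmp12 were too low to be tested, which left 41. With shRNF185.1, 20 members were called, 17 higher and 3 lower; over all genes tested 28.9% were called, 14.6% higher and 14.3% lower. With shRNF185.3, 23 members were called, 21 higher and 2 lower, where the shares over all genes were 27.3% in all, 14.2% higher and 13.1% lower. Of the members tested, these calls make up 48.8% and 56.1%. The median log2 fold change of the members tested was 0.17 with shRNF185.1 and 0.34 with shRNF185.3, beside -0.02 and -0.02 over all genes. For the mean of both hairpins against control, 22 members were called higher and 0 lower, beside 32.9% of all genes (16.1% higher, 16.8% lower). That one-sided split of 100% higher was 85.7% (18 higher, 3 lower) when an offset for GC content and length was used. It was 76.2% (16 higher, 5 lower) without batch 3. The splits over all genes in these fits are not given here, so the change is not shown to be particular to the members. A call for the mean does not say that both hairpins were higher. Mmp9 and Adam8 were called higher for the mean, with log2 fold changes of -0.19 and -0.27 for shRNF185.1 and 1.32 and 0.91 for shRNF185.3. Adam5 passed the low-count filter mainly through shRNF185.3, where 5 libraries reached the filter's level against 0 in control, so the direction of its call was partly fixed by the filter. The labels do not say that the libraries of a group are separate cultures, so the p-values measure the spread between these libraries, which may be technical. Bulk RNA also cannot tell fewer cells of a type from less RNA per cell.

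The genes of the procollagen N-proteinases, which cut the amino-terminal propeptides from fibrillar procollagens, were higher with both hairpins: 3 of 3 were called with each, beside 14.6% and 14.2% of all genes called higher. Adamts2 (chromosome 11, GRCm38 50602084 to 50807573) ranged from 34.4 to 58.4 CPM in control with a median of 45.5, from 71.6 to 106 with a median of 73.4 with shRNF185.1, and from 66.7 to 109 with a median of 102 with shRNF185.3. No hairpin library reached down to the control range. Its log2 fold changes were 0.81 (SE 0.13, edgeR adjusted p = 0.000141) and 1.05 (SE 0.13, adjusted p = 1.03e-05). Adamts14 ranged from 6.11 to 12.6 CPM in control (median 10.8), 13.0 to 20.5 with shRNF185.1 (median 16.2) and 20.9 to 29.8 with shRNF185.3 (median 23.3), so that the groups did not overlap. The respective log2 fold changes were 0.74 (SE 0.17, adjusted p = 0.00272) and 1.27 (SE 0.17, adjusted p = 1.86e-05); for shRNF185.1 it was 0.66 (adjusted p = 0.0508) without batch 1 and 0.52 (adjusted p = 0.065) without batch 3. Adamts3, whose product also processes the lymphatic growth factor Vegfc, ranged from 4.27 to 7.52 CPM in control (median 6.78), 6.49 to 14.2 with shRNF185.1 (median 8.40) and 14.7 to 20.8 with shRNF185.3 (median 17.9). Only the shRNF185.1 range met that of control. Its log2 fold changes were 0.49 (SE 0.16, adjusted p = 0.0294) and 1.48 (SE 0.16, adjusted p = 2.07e-06). With shRNF185.1 it was not called without batch 1 (0.67, adjusted p = 0.0531), batch 2 (0.57, adjusted p = 0.0735) or batch 3 (0.25, adjusted p = 0.157).

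Of the 12 Adamts genes, N-proteinases included, 7 were called higher with shRNF185.1 and 8 with shRNF185.3, and 0 lower with either. The shares of all genes called higher were 14.6% and 14.2%. Without the N-proteinases, 2 of 4 hyalectanase genes and 2 of 5 others were called with shRNF185.1, and 3 of 4 and 2 of 5 with shRNF185.3. Adamts12 and Adamts7, whose products cut cartilage oligomeric matrix protein, were called with both hairpins. Adamts12 ranged from 8 to 11.6 CPM in control (median 9.93), 13.8 to 19.4 with shRNF185.1 (median 14.4) and 18.8 to 23.6 with shRNF185.3 (median 20.9); its log2 fold changes were 0.64 (SE 0.10, edgeR adjusted p = 0.000124) and 1.12 (SE 0.10, adjusted p = 2.31e-07). Adamts7 ranged from 9.87 to 18.3 CPM in control (median 15.7), 21.6 to 37.0 with shRNF185.1 (median 23.8) and 29.2 to 37.4 with shRNF185.3 (median 32.3), which gave 0.77 (SE 0.15, adjusted p = 0.000644) and 1.12 (SE 0.15, adjusted p = 1.57e-05) on the log2 scale. In both genes every hairpin library lay above the highest control library. The remaining 3 genes that are neither N-proteinases nor hyalectanases were not called against control with either hairpin: Adamts10 (0.17 and 0.18), Adamts6 (-0.09 and 0.07) and Adamts16 (-0.32 and 0.57). Adamts10 was called for the mean of both hairpins (0.17, adjusted p = 0.0312; 0.0675 when blocked on replicate number), a call lost in 7 of 15 alternatives, with the GC and length offset at 0.04 (adjusted p = 0.494).

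Among the hyalectanases, which cut aggrecan and versican, the neighbours Adamts1 and Adamts5 were higher with both hairpins. They lie 53.1 kb apart on the minus strand of chromosome 16. Adamts1 ranged from 9.52 to 22.4 CPM in control (median 16.3), 21.7 to 40.5 with shRNF185.1 (median 32.0) and 23.4 to 33.1 with shRNF185.3 (median 28.2). All but 1 of the hairpin libraries lay above every control library, with changes of 0.95 (SE 0.18, edgeR adjusted p = 0.000666) and 0.80 (SE 0.18, adjusted p = 0.00294; 0.59, adjusted p = 0.0543, without batch 3). Adamts5 was rare in control, at 0.701 to 1.67 CPM (median 1.08), and stood at 1.71 to 6.13 CPM with shRNF185.1 (median 2.56) and 2.47 to 5.99 with shRNF185.3 (median 4.19). Its log2 fold changes were 1.51 (SE 0.33, adjusted p = 0.00177) and 1.87 (SE 0.33, adjusted p = 0.000272). Adamts4 was called with shRNF185.3 only against control, from a median of 10 CPM (7.47 to 15.0) to 17.3 (13.8 to 21.0), at 0.64 (SE 0.17, adjusted p = 0.00935); with shRNF185.1 the value was 0.06 (adjusted p = 0.817). The shRNF185.3 value was not called on summed libraries (0.64, adjusted p = 0.0829), without batch 1 (0.56, adjusted p = 0.147) or without batch 3 (0.35, adjusted p = 0.2), and within batch 2 it was -0.07. Adamts9 was not called, at -0.12 and -0.17.

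Of the Adamtsl genes, Adamtsl4, which encodes a fibrillin-binding protein of microfibrils, was higher with both hairpins. It ranged from 19.8 to 28.5 CPM in control (median 24.8), 28.6 to 38.8 with shRNF185.1 (median 30.5) and 38.8 to 49.4 with shRNF185.3 (median 42.1). Both hairpin ranges lay above that of control, at log2 fold changes of 0.37 (SE 0.09, edgeR adjusted p = 0.00388) and 0.81 (SE 0.09, adjusted p = 2.14e-06). With shRNF185.1 it missed the threshold without batch 1 (0.40, adjusted p = 0.0581) and without batch 3 (0.19, adjusted p = 0.0568). Adamtsl3 was lower with shRNF185.1, at -0.42 (SE 0.14, adjusted p = 0.0281), with 4 of 6 libraries below the control range of 6.96 to 11.9 CPM; without batch 1 the value was -0.28 (adjusted p = 0.321) and without batch 2 -0.32 (adjusted p = 0.214). Adamtsl5 was not called (-0.15 and -0.08).

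**Figure D2:**
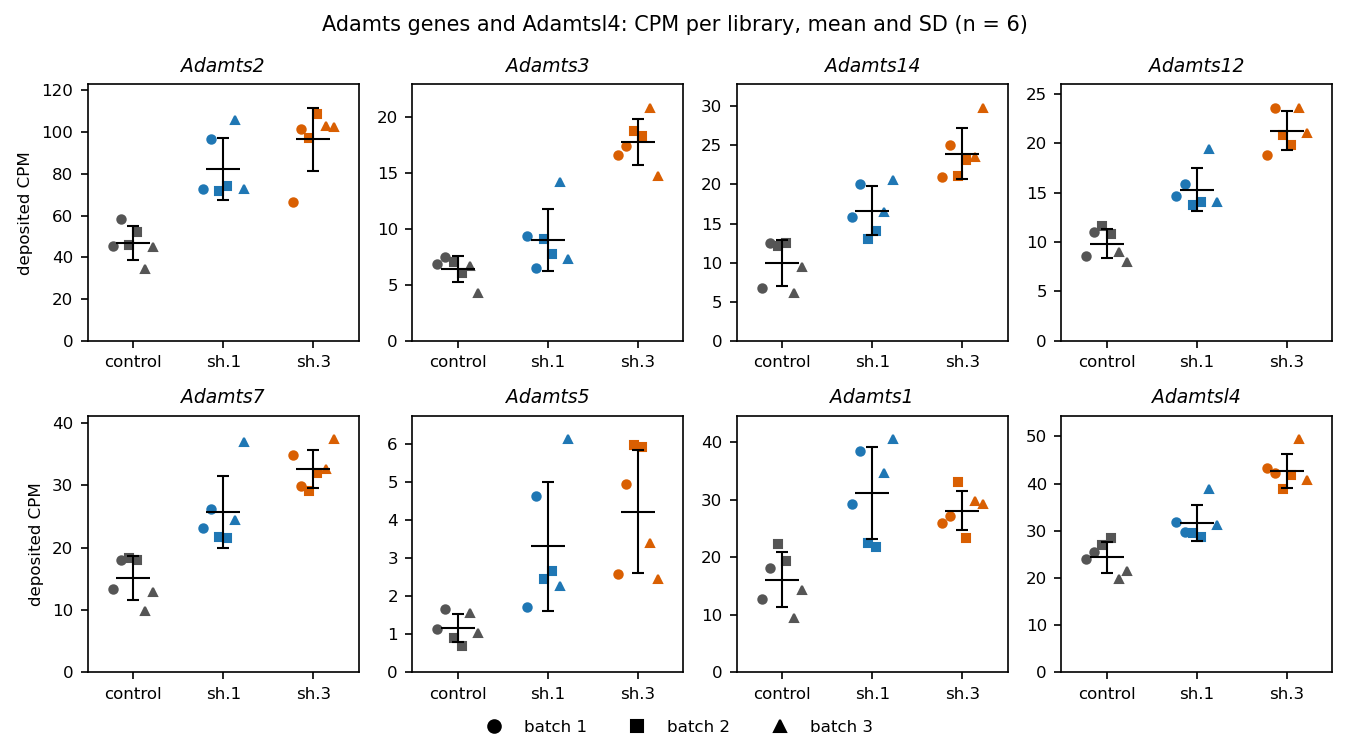
Deposited CPM per library of called Adamts and Adamtsl genes in control, shRNF185.1 (sh.1) and shRNF185.3 (sh.3); each point is a library, its shape marks the batch, and the bars give the mean and SD of 6. Adamts2, Adamts5, Adamts7, Adamts12, Adamts14 and Adamtsl4 show every hairpin library above every control library.

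Mmp19, which encodes a secreted Mmp with basement membrane substrates, had the largest log2 fold change among the members with shRNF185.1. It ranged from 5.77 to 9.20 CPM in control (median 8.16), 17.8 to 35.5 with shRNF185.1 (median 26.3) and 17.6 to 35.8 with shRNF185.3 (median 23.0). Every hairpin library held more than the highest control library, at log2 fold changes of 1.74 (SE 0.20, edgeR adjusted p = 2.39e-06) and 1.61 (SE 0.20, adjusted p = 5.97e-06). Batch by batch, shRNF185.1 libraries exceeded control by 1.91, 1.19 and 2.01, and those of shRNF185.3 by 1.19, 1.94 and 1.56. Of its exonic length, 28.33% overlaps exons of Gm47093 and Tmem198b on the opposite strand, and whether counting used the strand is not given in the sources used here.

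The gelatinase genes Mmp2 and Mmp9, whose products cut denatured collagen and basement membrane collagen, were each called with 1 hairpin, Mmp9 with shRNF185.3 and Mmp2 with shRNF185.1. Mmp9 ranged from 8.81 to 13.5 CPM in control (median 11.6), 7.17 to 13.1 with shRNF185.1 (median 9.58) and 24.0 to 35.4 with shRNF185.3 (median 26.4). The shRNF185.3 libraries stood apart from both other groups, with a log2 fold change of 1.32 (SE 0.14, edgeR adjusted p = 1.6e-06) against control, where shRNF185.1 gave -0.19 (SE 0.15, adjusted p = 0.346). Mmp2 ranged from 38.5 to 68.9 CPM in control (median 52.3), 64.9 to 104 with shRNF185.1 (median 79.3) and 45.0 to 82.9 with shRNF185.3 (median 64.1). For shRNF185.1 the log2 fold change was 0.70 (SE 0.16, adjusted p = 0.00244; without batch 1 0.55, adjusted p = 0.0937), and for shRNF185.3 0.34 (SE 0.16, adjusted p = 0.122). The direct difference between the hairpins was not called for Mmp2 (-0.36, SE 0.16, adjusted p = 0.148).

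Mmp14, the membrane-type enzyme that activates pro-Mmp2 together with Timp2, was the most abundant Mmp by CPM. It ranged from 305 to 370.5 CPM in control (median 322), 346 to 393 with shRNF185.1 (median 369) and 377 to 420.3 with shRNF185.3 (median 409.5). The rise was small, at 0.16 (SE 0.05, edgeR adjusted p = 0.0189) and 0.30 (SE 0.05, adjusted p = 0.000127). With shRNF185.1 it missed the threshold with the GC and length offset (0.09, adjusted p = 0.0521), with the lower count filter (adjusted p = 0.056), without batch 1 (0.12, adjusted p = 0.268) and without batch 3 (0.12, adjusted p = 0.199). The other 3 membrane-type genes tested, Mmp15, Mmp17 and Mmp24, were not called; Mmp15 had the widest spread with shRNF185.1, from 0.686 to 5.25 CPM, and a log2 fold change of -0.92 (SE 0.40, adjusted p = 0.0928). Mmp28 (epilysin) and Mmp11 (stromelysin 3, activated inside the cell by furin) were called with shRNF185.3. Mmp28 ranged from 7.81 to 10.7 CPM in control, 9.19 to 16.6 with shRNF185.1 and 11 to 16.8 with shRNF185.3, at 0.34 (SE 0.14, adjusted p = 0.0763) and 0.59 (SE 0.14, adjusted p = 0.00398). Mmp11 ranged from 9.77 to 15.4 CPM in control, 11.4 to 18.5 with shRNF185.1 and 13.2 to 20.3 with shRNF185.3, at 0.15 (SE 0.13, adjusted p = 0.426) and 0.47 (SE 0.13, adjusted p = 0.0102). Without batch 3 these shRNF185.3 values were 0.46 (adjusted p = 0.0988) for Mmp28 and 0.33 (adjusted p = 0.183) for Mmp11.

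**Figure D3:**
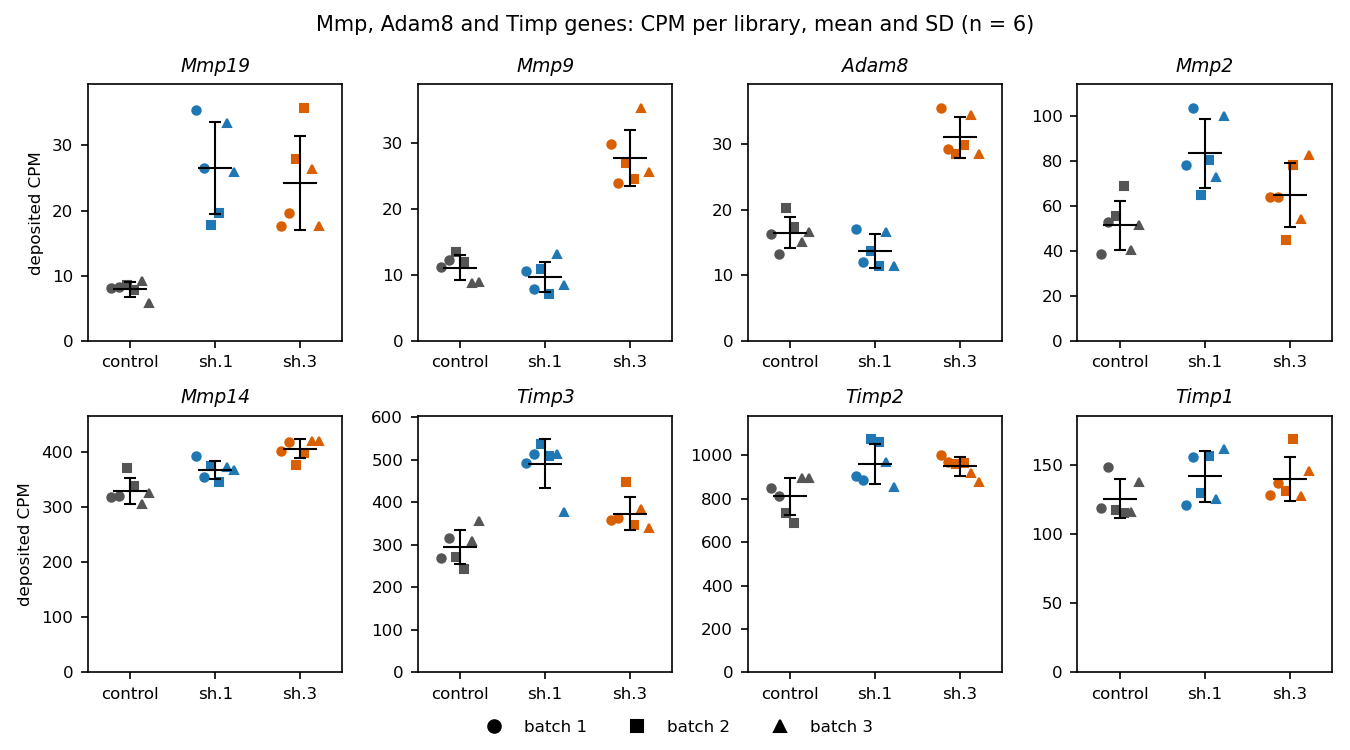
Deposited CPM per library of Mmp genes, Adam8 and the Timp genes in control, shRNF185.1 (sh.1) and shRNF185.3 (sh.3); points are libraries with shapes for batches, bars the mean and SD of 6. Mmp19 stands at 17.6 CPM or more in every hairpin library, and Mmp9 above 13.5 CPM in the shRNF185.3 libraries only.

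Among the members, Mmp13, Mmp12, Mmp3 and Mmp10 follow each other in this order on the plus strand of chromosome 9. The gaps between these members are 61.0, 76.3 and 46.4 kb. Family genes that are not members were not placed and can lie in these gaps. Exons of Mmp1b, which is not a member, overlap 2.17% of the exonic length of Mmp12 on the opposite strand. Of these members, Mmp13 encodes a collagenase, and Mmp3 and Mmp10 encode stromelysins. Their promoters share a run of letters, so the 150 bases before each RefSeq start (GRCm38.p6, plus strand) are shown, with the match to TGAGTCA or its reverse complement TGACTCA, the sequence bound by AP-1 factors, in capitals. Mmp3 is at chr9:7445672-7445821, Mmp10 at chr9:7502192-7502341 and Mmp13 at chr9:7272364-7272513.
Mmp3: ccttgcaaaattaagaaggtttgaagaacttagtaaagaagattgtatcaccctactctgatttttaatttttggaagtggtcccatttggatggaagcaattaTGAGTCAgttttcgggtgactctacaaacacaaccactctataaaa
Mmp10: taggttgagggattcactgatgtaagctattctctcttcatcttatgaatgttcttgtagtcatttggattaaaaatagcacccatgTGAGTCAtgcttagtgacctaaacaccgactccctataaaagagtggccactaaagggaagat
Mmp13: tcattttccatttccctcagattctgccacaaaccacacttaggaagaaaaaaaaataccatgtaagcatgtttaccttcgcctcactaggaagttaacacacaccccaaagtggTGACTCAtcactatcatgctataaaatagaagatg
The match begins 46, 63 and 35 bases before the start in Mmp3, Mmp10 and Mmp13. In the 250 bases before the start of each gene's first table entry, searched on both strands, this heptamer occurred in 1197 of 27025 promoters (4.43%) and in 3 of the 28 members with a promoter in the table, which are these 3. Second entries of Adam19 and Mmp12 also hold it, beginning 131 and 44 bases before those starts. TATAAA (reverse complement TTTATA) occurred in 13% of all promoters and in 4 of the 28 members, these 3 and Adamts1. AGGAAG (reverse complement CTTCCT), an ETS core, occurred in 29.2% of all promoters and in 10 of the 28 members. A match describes the letters and shows no binding.

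Mmp3 and Mmp10 were lower with shRNF185.3, over a wide spread between libraries. Mmp3 ranged from 64.3 to 245 CPM in control (median 115), 74.4 to 151 with shRNF185.1 (median 124) and 47.1 to 93.7 with shRNF185.3 (median 59.8). Control replicate 3 was the highest library of all in Mmp3 (245 CPM), Mmp10 (23.1 CPM) and Mmp13 (40.9 CPM), and control libraries 5 and 6 were low in Mmp3, so that the groups overlapped. Against control, shRNF185.1 gave -0.03 for Mmp3 (SE 0.27, edgeR adjusted p = 0.941), while shRNF185.3 gave -0.92 (SE 0.27, adjusted p = 0.0154). Mmp10 ranged from 5.93 to 23.1 CPM in control (median 12.1), 6.01 to 14.5 with shRNF185.1 (median 10.5) and 4.97 to 8.36 with shRNF185.3 (median 7.37), at -0.26 (adjusted p = 0.471) and -0.87 (SE 0.26, adjusted p = 0.0164). Mmp13 ranged from 4.67 to 40.9 CPM in control (median 15.9), 12.3 to 36.8 with shRNF185.1 (median 19.6) and 4.93 to 19.2 with shRNF185.3 (median 8.57), and was not called, at 0.26 (SE 0.42, adjusted p = 0.683) and -0.89 (SE 0.43, adjusted p = 0.133).

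Within this cluster, the shRNF185.3 difference from control was not the same in the 3 batches. In batches 1, 2 and 3 it was -0.99, -1.54 and 0.06 for Mmp3, -0.93, -1.38 and 0.01 for Mmp10, and -1.43, -1.63 and 0.92 for Mmp13. Without control replicate 3, a choice made after seeing the values, Mmp3 was -0.61 (edgeR adjusted p = 0.0445) and Mmp10 -0.61 (adjusted p = 0.0454). The calls were lost on summed libraries (adjusted p = 0.0643 for Mmp3 and 0.0581 for Mmp10), without batch 1 (0.135 and 0.132), and without batch 2, at -0.46 (adjusted p = 0.169) and -0.50 (adjusted p = 0.133). Set directly against shRNF185.1, shRNF185.3 was lower in every batch: -1.02, -0.63 and -1.03 for Mmp3, -0.67, -0.23 and -0.81 for Mmp10, and -1.39, -1.06 and -1.11 for Mmp13. Of these direct differences only that of Mmp3 was called (-0.89, SE 0.27, adjusted p = 0.0314); it was lost with batch as a covariate (adjusted p = 0.0512), on summed libraries (0.0778), without batch 1 (0.261) and without batch 3 (0.0553). Mmp3 and Mmp10 share 3.764% and 3.944% of their 75-base windows with each other, so few reads could be split between them.

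**Figure D4:**
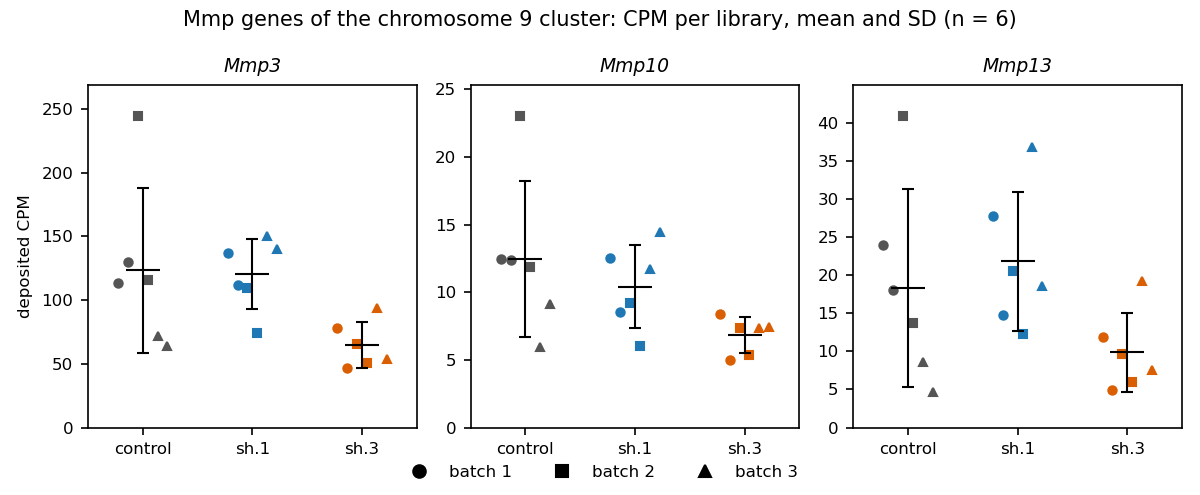
Deposited CPM of Mmp3, Mmp10 and Mmp13 in every library of control, shRNF185.1 (sh.1) and shRNF185.3 (sh.3), with shapes for batches and bars for the mean and SD of 6. Control replicate 3, in batch 2, is the highest point in each gene (245, 23.1 and 40.9 CPM), and in batch 3 the control libraries do not lie above those with shRNF185.3 as a group.

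Among the Adam genes, those for the broadly expressed sheddases changed by small amounts and Adam8 by more. Adam8, whose product sheds adhesion receptors and is best known in leukocytes, ranged from 13.3 to 20.3 CPM in control (median 16.5), 11.4 to 17 with shRNF185.1 (median 12.9) and 28.4 to 35.5 with shRNF185.3 (median 29.6). The shRNF185.3 libraries did not overlap with either other group. For shRNF185.3 the difference from control was 0.91 (SE 0.11, edgeR adjusted p = 7.13e-06), and for shRNF185.1 it was -0.27 (SE 0.11, adjusted p = 0.0898). The leukocyte genes Ptprc, Adgre1 and Csf1r were at 5 counts or fewer in every library. Cd14 and Cd68, at 45.8 and 3.65 CPM in control, were not called with shRNF185.3 (adjusted p = 0.194 and 0.0767). With shRNF185.1, Cd68 was lower (-0.68, adjusted p = 0.0117) and Cd14 was not called (0.30, adjusted p = 0.0737). The source of the Adam8 transcripts was not tested. Adam15 and Adam9, membrane metalloproteinases with disintegrin domains that bind integrins, rose with both hairpins. Adam15 ranged from 87.4 to 102 CPM in control (median 99.5), 107 to 117 with shRNF185.1 (median 111) and 125 to 135 with shRNF185.3 (median 132). No 2 groups overlapped, at 0.20 (SE 0.04, edgeR adjusted p = 0.00149) and 0.43 (SE 0.04, adjusted p = 4.39e-07). Exons of 4731419I09Rik overlap 20.55% of the exonic length of Adam15 on the opposite strand. Adam9 ranged from 161 to 207 CPM in control (median 187), 209.5 to 261 with shRNF185.1 (median 225) and 219 to 241 with shRNF185.3 (median 229.9), at 0.30 (SE 0.06, adjusted p = 0.0016; 0.17, adjusted p = 0.108, without batch 1) and 0.31 (SE 0.06, adjusted p = 0.00134). Adam19 rose by 0.22 with each (SE 0.06; adjusted p = 0.00844 and 0.00814), from a control range of 42.2 to 50.2 CPM to 49.2 to 59.1 and 49.2 to 57.5. With the GC and length offset the Adam19 values were 0.15 (edgeR adjusted p = 0.0829) and 0.13 (adjusted p = 0.116). Without batch 1 they were 0.13 (adjusted p = 0.249) and 0.19 (adjusted p = 0.0871). Exons of Gm16033 and Gm16034 overlap 15.0% of the exonic length of Adam19 on the opposite strand.

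Of the chief sheddase genes, Adam17 was slightly higher with shRNF185.1, and Adam10 was not called. Adam17, which releases tumour necrosis factor and ligands of the epidermal growth factor receptor, ranged from 74.4 to 86.3 CPM in control (median 78.4), 81.4 to 91.7 with shRNF185.1 (median 88.5) and 73.3 to 79.7 with shRNF185.3 (median 75.9). It was called with shRNF185.1 at 0.16 (SE 0.04, edgeR adjusted p = 0.00664), with 5 of 6 libraries above control, and not with shRNF185.3 (-0.04, SE 0.04, adjusted p = 0.474). The shRNF185.1 call was lost without batch 1 (0.14, adjusted p = 0.16) and without batch 2 (0.14, adjusted p = 0.0622). Adam10, which cuts Notch and cadherins, ranged from 200.1 to 271 CPM in control, 230.4 to 288 with shRNF185.1 and 226 to 265 with shRNF185.3, at 0.14 (SE 0.08, adjusted p = 0.211) and 0.07 (SE 0.08, adjusted p = 0.578).

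Adam12 and Adam1a were lower with shRNF185.1. Adam12, whose product cuts insulin-like growth factor binding proteins, ranged from 17.9 to 46.7 CPM in control (median 28.6), 11.4 to 24.9 with shRNF185.1 (median 16.9) and 18.7 to 42.1 with shRNF185.3 (median 25.6). For shRNF185.1 the change was -0.74 (SE 0.24, edgeR adjusted p = 0.0262), at -0.70, 0.23 and -1.61 within the batches, and for shRNF185.3 it was -0.04 (adjusted p = 0.916). The call was lost on summed libraries (-0.74, adjusted p = 0.0987), without batch 1 (-0.75, adjusted p = 0.162) and without batch 3 (-0.26, adjusted p = 0.481). Adam1a was -0.49 (SE 0.18, adjusted p = 0.045) with shRNF185.1, but 77.011% of its 75-base windows are shared with Adam1b, Gm42878 and Mapkapk5, so its counts are uncertain. That call was lost in 8 of the alternatives. Adam5 was 0.184 CPM on average in control and 0.507 with shRNF185.3, at 1.47 (SE 0.39, adjusted p = 0.00803); leaving out batch 3 gave 1.20 (adjusted p = 0.143). The Adam5 call for the mean of both hairpins (1.11, adjusted p = 0.0212) was lost when blocked on replicate number (adjusted p = 0.0613). Adam11 and Adam22, which encode Adam proteins lacking protease activity, were not called.

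The inhibitor genes rose or were not called, and none fell. Timp3, which encodes a matrix-bound inhibitor of several Mmp enzymes, Adam17 and aggrecan-cutting Adamts enzymes, ranged from 244 to 355 CPM in control (median 290.0), 377 to 538 with shRNF185.1 (median 511) and 340.3 to 448 with shRNF185.3 (median 362). All shRNF185.1 libraries and 4 of 6 shRNF185.3 libraries lay above every control library, at changes of 0.74 (SE 0.10, edgeR adjusted p = 1.2e-05) and 0.35 (SE 0.10, adjusted p = 0.0102). With shRNF185.3 the call was lost without batch 1 (0.37, adjusted p = 0.0953) and without batch 2 (0.22, adjusted p = 0.126). Exons of Syn3 overlap 21.28% of its exonic length on the opposite strand. Timp2 ranged from 687 to 896 CPM in control (median 831), 856 to 1074 with shRNF185.1 (median 938) and 878 to 1001 with shRNF185.3 (median 963), at 0.24 (SE 0.07, adjusted p = 0.0159) and 0.23 (SE 0.07, adjusted p = 0.0233). In batches 1, 2 and 3 the shRNF185.1 libraries exceeded control in Timp2 by 0.11, 0.58 and 0.03, and the shRNF185.3 libraries by 0.25, 0.44 and 0.01. Without batch 2 neither was called (0.08, adjusted p = 0.379, and 0.14, adjusted p = 0.124), the second was not in a fit blocked on replicate number (adjusted p = 0.0542), and leaving out control replicate 3 gave 0.20 (adjusted p = 0.051). With the GC and length offset both Timp2 values missed the threshold (adjusted p = 0.147 and 0.242), as they did without batch 1 (adjusted p = 0.0608 and 0.174) and on summed libraries (0.102 and 0.129). Timp1 ranged from 115 to 149 CPM in control, 121 to 162 with shRNF185.1 and 128 to 169 with shRNF185.3, and was not called (0.17, adjusted p = 0.164, and 0.16, adjusted p = 0.209).

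Summed per kilobase, the 3 Timp genes stood at 386 ± 35.4 CPM per kb in control, 466 ± 29.6 under shRNF185.1 and 447 ± 18.7 under shRNF185.3 (SD over 6 libraries), and the 13 Mmp genes at 166 ± 49.8, 186 ± 24.7 and 156 ± 13.1. The ratio of the Timp sum to the Mmp sum was 1.37 to 3.46 in control, 2.09 to 3.50 with shRNF185.1 and 2.38 to 3.16 with shRNF185.3, and these ranges overlapped. The 12 Adamts genes summed to 14.9 to 23.6 CPM per kb in control, 26.0 to 36.3 with shRNF185.1 and 33.5 to 41.0 with shRNF185.3, where neither hairpin overlapped control. These sums are descriptions and were not tested. They measure RNA and not enzyme activity.

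The direct comparison of the hairpins asked which members respond differently to them. Against each other, 12 of 41 members were called, 9 higher and 3 lower with shRNF185.3, beside 14.7% of all genes tested (7.72% higher, 6.94% lower). Among the members called, Mmp9 and Adam8 differed most, at 1.52 (SE 0.14, edgeR adjusted p = 7.12e-07) and 1.18 (SE 0.11, adjusted p = 8.5e-07), followed by Adamts3 at 0.98 (SE 0.16, adjusted p = 0.000302). In batches 1, 2 and 3 Mmp9 differed by 1.54, 1.54 and 1.51 and Adam8 by 1.17, 1.22 and 1.18, so these gaps varied little between batches. Adamtsl4 (0.44, adjusted p = 0.00215), Adamts12 (0.48, adjusted p = 0.00282), Adamts14 (0.53, adjusted p = 0.0401), Adamts4 (0.57, adjusted p = 0.0301) and Adam15 (0.24, adjusted p = 0.000709) were also higher with shRNF185.3. Adamts16 was higher by 0.89 (adjusted p = 0.0393) at levels of 0.313 and 0.585 CPM. It reached the low-count filter's level in 4 control, 1 shRNF185.1 and 5 shRNF185.3 libraries, so the direction of this call was partly fixed by the filter. Timp3 (-0.39, adjusted p = 0.00826), Adam17 (-0.20, adjusted p = 0.00218) and Mmp3 (-0.89) were lower with shRNF185.3. In the fit blocked on replicate number, Adamts16 (adjusted p = 0.0776) and Adamts4 (adjusted p = 0.0612) missed the threshold. The call was lost in 8 of 15 alternatives for Adamts16, 6 for Adamts14, 4 for Adamts4, 2 for Adam17 and 1 each, the fit without batch 1, for Adamts12, Adamtsl4 and Timp3. Rnf185 itself was -0.00 between the hairpins (SE 0.08, adjusted p = 0.997).

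**Figure D5:**
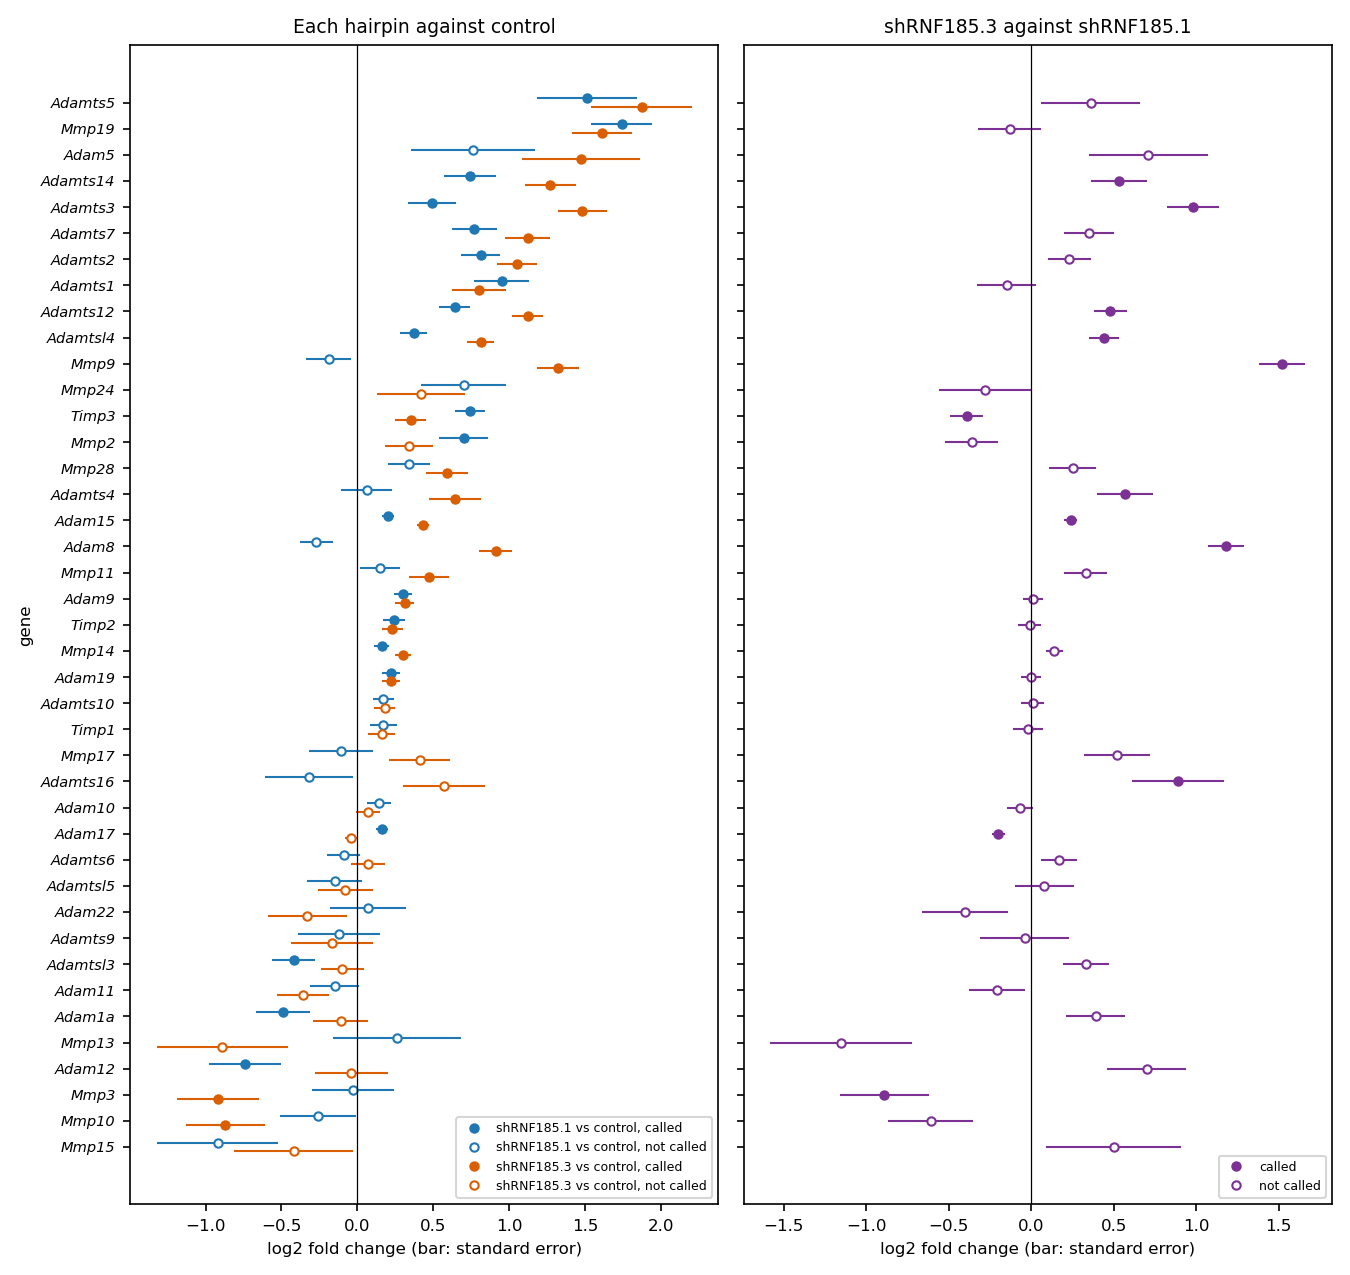
Log2 fold change with its standard error for the 41 members tested, each hairpin against control on the left and shRNF185.3 against shRNF185.1 on the right, from edgeR; filled points were called. On the left Mmp19 lies at 1.74 and 1.61 and Mmp9 at -0.19 and 1.32, and on the right Mmp9 lies at 1.52.

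Genes that act on these proteases were read from a list of 21, of which 14 were tested; with shRNF185.1, 4 were higher and 2 lower, and with shRNF185.3 3 were higher and 2 lower. Over all genes, 28.9% and 27.3% were called, with 14.6% and 14.2% higher. Reck, which encodes a membrane-anchored inhibitor of Mmp enzymes, averaged 2.17 CPM in control, 2.52 with shRNF185.1 and 4.81 with shRNF185.3, and was called with shRNF185.3 only (1.15, SE 0.14, edgeR adjusted p = 6.89e-06; shRNF185.1 0.21, adjusted p = 0.296). The direct hairpin difference in Reck was 0.93 (SE 0.14, adjusted p = 0.000141). Lrp1, the endocytic receptor that clears Mmp enzymes and their inhibitors, was 829 CPM in control, 1066 with shRNF185.1 and 1118 with shRNF185.3 (0.36, adjusted p = 0.00478, and 0.43, adjusted p = 0.00128). Of the tetraspanins that escort Adam10, Tspan15 was lower (-0.43, adjusted p = 0.000212, and -0.53, adjusted p = 2.93e-05) and Tspan17 higher (0.33, adjusted p = 0.00671, and 0.26, adjusted p = 0.0345) with both hairpins. Tspan5 was lower with shRNF185.3 (-0.40, adjusted p = 5.53e-06). Pcsk6, a proprotein convertase, was rare, at 41 counts or fewer in every library and 0.948 CPM on average in control. It was lower with shRNF185.1 (-0.99, edgeR adjusted p = 0.000508) and not called with shRNF185.3 (0.43, adjusted p = 0.0644). The direct hairpin difference in Pcsk6 was 1.42 (adjusted p = 2.67e-05). Of the list of 9 astacin proteases and related genes, 4 were tested: with shRNF185.1, Pcolce, an enhancer of procollagen C-proteinase, was higher (0.29, adjusted p = 0.00825) and Thsd4 lower (-0.99, adjusted p = 0.000141), and with shRNF185.3 Thsd4 was lower (-0.54, adjusted p = 0.0155).

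Listed genes for surface proteins shed by Adam10 or Adam17 were more often called lower than higher. The list was chosen with earlier results of these data known, so these counts only describe it. Of 25 listed, 24 were tested: with shRNF185.1, 6 were higher and 10 lower, and with shRNF185.3, 3 were higher and 10 lower, beside shares over all genes of 14.6% and 14.2% higher and 14.3% and 13.1% lower. Among those called higher with both hairpins were the syndecan gene Sdc1 (0.43, edgeR adjusted p = 0.000128, and 0.40, adjusted p = 0.000289), App (0.32, adjusted p = 0.00092; 0.25, adjusted p = 0.00791) and the tumour necrosis factor receptor gene Tnfrsf1a (0.22, adjusted p = 0.00844; 0.27, adjusted p = 0.00169). Axl was higher with shRNF185.1 (0.27, adjusted p = 0.000469) and -0.01 with shRNF185.3 (adjusted p = 0.854). Ligands of the epidermal growth factor receptor were part of the lower group. Areg, for amphiregulin, averaged 17.3 CPM in control, 5.27 with shRNF185.1 and 3.73 with shRNF185.3 (-1.71, edgeR adjusted p = 1.3e-06, and -2.21, adjusted p = 1.01e-07). Btc, for betacellulin, averaged 15.8, 7.39 and 5.64 CPM (-1.10, adjusted p = 0.00164, and -1.49, adjusted p = 0.000134), and Tgfa 19.3, 11.1 and 13.3 CPM (-0.80, adjusted p = 0.000123, and -0.54, adjusted p = 0.00371). Hbegf was lower with both (-0.24, adjusted p = 0.0319, and -0.39, adjusted p = 0.00116), and Ereg with shRNF185.3 (-0.72, adjusted p = 0.00227; shRNF185.1 -0.41, adjusted p = 0.0551). The Notch ligand gene Jag1 averaged 56.8, 24.5 and 29.5 CPM (-1.22, adjusted p = 2.12e-05, and -0.95, adjusted p = 0.000268), and Alcam, an adhesion molecule, 5.18, 0.949 and 2.95 CPM (-2.45, adjusted p = 1.3e-07, and -0.81, adjusted p = 0.0042). These values are of transcripts, and shedding of the proteins was not measured.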

How the data were processed

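Polyadenylated RNA of MPC3 cells was read as single 75-base reads from directional libraries on an Illumina NextSeq, per the labels' protocols. The submitters' processing notes name cutadapt 2.3, STAR 2.7.0d, RSEM 1.3.1 and mm10, and the labels name ComBat-Seq, a batch adjustment; whether it was told the groups is not given in the sources used here. Either way of adjusting can alter the spread within groups, and with it the standard errors and p-values printed. The deposited expected counts (0.466% not whole, 0 of these in members) were rounded, where the design had assumed whole counts. The deposited CPM are a signal scaled by the authors to an effective library size (TMM), so columns sum to 969986 to 1026394. Symbols came from an identifier table (99.1% matched), positions from GENCODE M21 on GRCm38 and promoters from RefSeq GRCm38.p6, where 28 of 43 members matched.

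In R 4.3.3, edgeR 4.0.16 kept 14309 genes (filterByExpr, minimum count 10), scaled by TMM, and fitted a mean per group over 18 libraries without a covariate, with the quasi-likelihood F test and Benjamini-Hochberg adjustment over these genes. Each SE printed was derived from that test, as the absolute log2 fold change divided by the square root of F. The fit was tested on simulated data. Alternatives used DESeq2 1.42.0 and limma 3.58.1, other scaling, filters, batch or replicate terms, and left-out libraries. The floor of 3 counts covers counting error only. Among the 45 pairs of libraries within groups, the lowest chi-square per gene was 7.64, so none was a duplicate. The symbol rule for members and the gene lists were chosen with earlier results of these data known. Members called at an adjusted p under 0.05 in a comparison of groups, the Timp genes and Rnf185 are named, as are tested members that were not called. Adam genes were kept as 1 class, since their protein sequences were not used here to split them by zinc-binding motif. Some of the prostate markers listed are not reported here.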

Additional observations from a re-analysis of the deposited data

Results flagged for a closer look

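In 8 of 93 groups of 6 libraries, the highest or lowest library stood far from the others by Dixon's criterion on log2 CPM, where chance gives about 1 in 20, or 4.65. Low libraries were Adam17 in shRNF185.1 replicate 6 (6.35, next 6.46), Adamts16 in control replicate 5 (-2.01, next -1.20), Adamts2 in shRNF185.3 replicate 1 (6.07, next 6.60), Adamts3 in control replicate 6 (2.12, next 2.62), Mmp19 in control replicate 6 (2.55, next 2.97) and Timp3 in shRNF185.1 replicate 6 (8.56, next 8.94). High libraries were Adamts7 in shRNF185.1 replicate 6 (5.21, next 4.71) and Adamtsl4 in shRNF185.1 replicate 5 (5.28, next 5.0).

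The hairpins differed from each other, by edgeR's test of that difference, in 12 members. On the log2 scale, shRNF185.3 was higher in Mmp9 by 1.52, Adam8 by 1.18, Adamts3 by 0.98, Adamts16 by 0.89, Adamts4 by 0.57, Adamts14 by 0.53, Adamts12 by 0.48, Adamtsl4 by 0.44 and Adam15 by 0.24. The differences were -0.89 in Mmp3, -0.39 in Timp3 and -0.20 in Adam17. Rnf185 was 5.81 and 5.80 CPM in these groups.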

How the results depend on the processing

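Over 15 alternatives, 39 of the 77 calls of a member in a comparison were kept in every alternative, 38 were lost in at least 1, and 0 changed direction. The counts of members called moved by over 1.5 times only without batch 1, to 8 with shRNF185.1 (from 20), 14 for both hairpins (from 22) and 5 between the hairpins (from 12); with shRNF185.3 it was 17 (from 23). The cause was not tested. Without batch 2 the shRNF185.1 count was 18, and without batch 3 it was 17. Shares over all genes in the alternative fits are not given here, so the drop is not shown to be particular to the members. Leaving out batch 1 ended 34 of the 77 calls, batch 3 ended 20, batch 2 ended 13, summing the 2 libraries of a batch 14, and leaving out control replicate 3 ended 3. Without batch 3, the calls for both hairpins were 16 higher and 5 lower. The GC and length offset gave 18 higher and 3 lower in that comparison. Rnf185 was called with each hairpin in all 15.

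In a fit with a replicate block, the members called numbered 21 for shRNF185.1, 22 for shRNF185.3, 21 for both hairpins and 11 for the hairpin difference. In that fit 5 calls were lost, each printed with its gene above. The shares over all genes in that fit are not given here. Same-numbered libraries of different groups deviated from their group means with an average correlation of -0.0144 (18 pairs, -0.628 to 0.705, 9671 genes), beside -0.434 for other numbers of the same batch (18 pairs) and 0.111 for other batches (72 pairs). As 2 of 18 libraries matched best with their own number and not every same-numbered pair correlated positively, the main fit did not take the numbers as pairs. Within a batch, however, same-numbered libraries had the higher average (-0.0144 beside -0.434 for other numbers). Whether the numbers mark pairs was not tested. These values do not exclude pairing, which the fit with a replicate block allows for. Members under 1 CPM rest on few counts, and at that depth small differences in them were not detectable.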

Other observations

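Within each group and batch, the odd-numbered library can be set beside the even-numbered one, which gives 9 pairs per member. Adam10, Adam22 and Mmp13 were higher in the odd-numbered library in all 9 pairs, and Adam11, Adamts14 and Mmp11 in the even-numbered library in all 9, among 41 tested members. In 8 of 9 pairs the odd-numbered library was higher in Mmp3, Mmp15, Mmp24, Mmp28, Adam1a, Adamts4 and Adamtsl5, and the even-numbered library in Mmp2, Timp1 and Adam12. These genes were picked after the values were seen, no test was made, and the labels give no meaning to odd and even numbers. As each group holds both kinds in equal number, the comparisons of groups are balanced for this split. The main fit has no term for it, so it enters there as spread between libraries. The fit with a replicate block allows for it.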
